A study of Mus musculus with 120 samples.

Results

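The nuclear and the cytoplasmic total RNA of mouse liver were compared in 24 of the 120 libraries of the series, every wild-type library labelled as nuclear total RNA (NT, 12 libraries) or cytoplasmic total RNA (CT, 12 libraries). The animals were male wild-type C57BL/6 mice, 8 to 12 weeks old, housed with 12 hours of light and 12 hours of dark and fed at night only for the last 3 days. 2 mice were sampled at each of 6 times 4 hours apart, from ZT0 (zeitgeber time 0, light onset) to ZT20. Each liver was homogenised in sucrose, the nuclei were pelleted through a sucrose cushion, and the RNA left in the sucrose was taken as cytoplasmic. All groups therefore share genotype, tissue, sex, housing and feeding. A library of the whole fraction was made after removal of ribosomal RNA, so that RNAs without a poly(A) tail were sequenced beside polyadenylated mRNA, and 24 further libraries of polyadenylated RNA from the same 12 livers (NA from the nucleus, CA from the cytoplasm) show what tail selection leaves out. The liver pieces were not sorted by cell type, and fewer cells of a type and less RNA per cell cannot be told apart in such bulk samples.

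A mammalian mRNA is transcribed and spliced in the nucleus, receives a poly(A) tail and is exported through the nuclear pore to be translated and degraded in the cytoplasm. Several classes of RNA follow other routes. Most small nucleolar RNAs are excised from introns of host genes, and they guide the chemical modification of ribosomal RNA in the nucleolus. Small Cajal body RNAs guide such modification of spliceosomal RNAs. Spliceosomal small nuclear RNAs pass through the cytoplasm during their assembly with proteins before they act in the nucleus. The mRNAs of replication-dependent histones end in a stem-loop in place of a poly(A) tail. Liver exports large amounts of protein, and the mRNAs of its secreted proteins are translated on the endoplasmic reticulum, which is continuous with the nuclear envelope.

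The values are estimated counts of mature (exonic) RNA per gene, and levels are given as counts per 1000000 (CPM) scaled with TMM factors, which set most genes to be alike between libraries. A difference is therefore relative to the bulk of genes, and levels are compared within a gene only. NT held 8402743 to 10567651 counts of mature RNA per library and CT 6796209 to 14440843. In NT a further 75.5% ± 2.13 (SD, n = 12) of all counts were pre-mRNA, against 4.22% ± 1.43 (SD, n = 12) in CT. ZT4 replicate 1 stood apart with the highest pre-mRNA share in CT (7.95%) and the lowest share of major urinary protein counts in both compartments. The CT libraries of ZT0 replicate 2 and ZT4 replicate 2 were the shallowest, with 7575642 and 7070166 counts in all, and had the highest cytoplasmic shares of box C/D, H/ACA and spliceosomal RNAs. Results that rest on these libraries are given with and without them. Of 18 hepatocyte genes fixed as a check of the tissue, all 18 were measured, and Alb, Apoa1 and Fabp1 had medians of 42288, 8246 and 6149 CPM in CT.

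A gene was called where its log2 difference, nucleus minus cytoplasm, passed 2 in size at an adjusted p under 0.01 (edgeR's quasi-likelihood test with the mouse as a block and Benjamini-Hochberg adjustment). Log2 differences are given with ± their standard error from the edgeR fit to the 12 mice, which is not the spread between mice. 1500 genes were called higher in NT and 1285 higher in CT, together 24.1% of the 11570 tested. At any fold, 4873 genes were higher (42.1%) and 4356 were lower (37.6%) at the same adjusted p, and it is against these shares that the gene lists below are read. The 12 nuclear and the 12 cytoplasmic libraries did not overlap for 5339 genes (46.1%), of which 2749 were higher in the nucleus (23.8%) and 2590 were lower (22.4%). The median difference over all genes was 0.10. Scaling by the counts of mature RNA alone moved this median by 0.66 and gave 2621 higher and 647 lower genes, whereas scaling by pre-mRNA and mature RNA together moved it by -1.31 and gave 466 and 3666. The share of higher genes among all called was 53.9% with TMM, 80.2% with the first and 11.3% with the second of these scalings, so that the direction of genes near 0 depends on the scaling.

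By annotated type, the small nucleolar RNAs stood at the nuclear end. The 72 tested genes of this type had a median log2 difference of 6.17, but 43 of them had 10 counts in no CT library and so passed the filter on low counts (10 counts in 12 of the 24 libraries) through NT alone, which fixed their direction. Among other types, medians were 3.24 for 5 small Cajal body RNA genes, 2.48 for 7 small nuclear RNA genes, 3.14 for 10 polymorphic pseudogenes and 2.18 for the long intergenic non-coding RNA genes, of which 70 were higher, 18 were lower and 14 did not pass. The 11135 protein-coding genes had a median of 0.06, with 4583 higher and 4266 lower. Of 38 processed pseudogenes, intronless copies of mRNAs, 28 were lower and 5 higher (median -3.16).

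The sequences of the small nucleolar RNAs with the largest nuclear excess among those that hold the 2 sequence boxes of their class are shown because these boxes define the class. In capitals are the C box (TGATGA) near the 5′ end and the D box (CTGA) near the 3′ end, where the proteins of the box C/D particle bind.
Snord21: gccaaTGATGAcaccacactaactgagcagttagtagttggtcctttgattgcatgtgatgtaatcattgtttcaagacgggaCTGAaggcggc
Snord82: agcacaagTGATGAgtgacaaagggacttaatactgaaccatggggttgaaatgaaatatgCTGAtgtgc
Snord99: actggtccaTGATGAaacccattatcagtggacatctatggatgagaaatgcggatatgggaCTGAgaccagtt
Snord49b: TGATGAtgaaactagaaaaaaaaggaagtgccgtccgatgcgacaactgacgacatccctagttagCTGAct
Snord32a: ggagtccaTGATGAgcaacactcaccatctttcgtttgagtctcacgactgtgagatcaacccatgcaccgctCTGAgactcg

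These genes lie at chr5:107904555-107904648 (plus strand), chr1:86356261-86356330 (minus strand), chr4:132310691-132310764 (plus strand), chr11:62603079-62603150 (plus strand) and chr7:45127382-45127464 (minus strand), with coordinates and sequences from the GENCODE annotation of GRCm38, the build of the files. Both boxes were searched on the transcribed strand, with TGATGA within the first 15 and CTGA within the last 15 bases. They were found in 34 of the 61 box C/D genes in the table. Among annotated genes whose longest transcript has 60 to 300 bases, a set that includes small nucleolar RNAs, 300 of 8694 held both (3.45%). The boxes of other members may vary by a base or lie farther inside, and no match says only that these letters are not in these windows.

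H/ACA RNAs, the other class, carry the letters ACA 3 bases from their 3′ end and guide the conversion of uridine to pseudouridine. The pair with most counts, Snora73a and Snora73b, is shown with the ACA box in capitals because their near identity limits how reads can be told apart.
Snora73b: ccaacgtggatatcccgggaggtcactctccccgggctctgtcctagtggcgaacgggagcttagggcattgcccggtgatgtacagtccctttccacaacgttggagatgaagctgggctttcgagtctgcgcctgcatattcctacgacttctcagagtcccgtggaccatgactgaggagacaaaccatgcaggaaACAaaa
Snora73a: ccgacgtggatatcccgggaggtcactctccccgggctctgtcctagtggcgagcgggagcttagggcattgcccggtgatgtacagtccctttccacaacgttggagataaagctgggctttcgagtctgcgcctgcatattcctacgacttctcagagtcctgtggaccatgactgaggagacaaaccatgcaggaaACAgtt

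They lie side by side on chromosome 4, at chr4:132352322-132352526 (minus strand) and chr4:132352775-132352979 (minus strand). ACA at this distance from the end was found in 30 of 36 H/ACA genes and in 441 of the 8694 genes with such short transcripts (5.07%).

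Of all 61 box C/D genes in the table, whatever their counts, 60 had a higher mean CPM in NT than in CT and the other was at 0 in both. 37 passed the filter on low counts, 22 of them with 10 counts in no CT library, so that these entered through NT and their direction in the test was fixed by the filter. The median log2 difference of the 37 was 6.44, which describes the members that passed and not the class. 5 members with 0 counts in every CT library enter this median at fitted values that are no bound, and with these members at their lower bound the median was 6.19. Together, the class took 0.327% ± 0.0966 (SD, n = 12) of mature counts in NT and 0.00479% ± 0.00394 in CT. The lowest NT library (0.194%) was far above the highest CT library (0.013%, ZT0 replicate 2), so the groups did not overlap.

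Snord21 was at 285 to 857 CPM (median 457) in NT and 0 to 1.25 CPM (median 0.700) in CT, a log2 difference of 9.75 ± 0.28 (adjusted p = 6.2e-15), and each of the 12 mice had at least 3176 counts of it in the nucleus and at most 9 in the cytoplasm. Snord34, from an intron of the ribosomal protein gene Rpl13a, was at 23.1 to 79.8 CPM (median 51.3) in NT and 0 to 0.0858 CPM (median 0) in CT, a log2 difference of 11.15 ± 0.21 (adjusted p = 3.2e-16). 11 of the 12 CT libraries held no count of Snord34, so that this fitted size depends on how 0 is treated. The other RNAs shown above were similar. Snord82 was at 12.7 to 36 CPM (median 23.6) in NT and 0 to 0.172 CPM (median 0) in CT, a log2 difference of 9.31 ± 0.26 (adjusted p = 4.7e-15). Snord99 was at 87.2 to 228 CPM (median 139.6) in NT and 0 to 1.26 CPM (median 0.263) in CT, a log2 difference of 8.85 ± 0.29 (adjusted p = 1.6e-14). For Snord49b and Snord32a, the log2 differences were 8.59 and 8.52, and neither overlapped between compartments. Snord21, Snord34, Snord82, Snord49b and Snord32a had 10 counts in no CT library. They passed the filter through NT alone, which fixed their direction, so their p-values do not test it. Snord22, with at least 25 counts in every CT library, was at 159 to 356 CPM (median 216) in NT and 3.52 to 45 CPM (median 7.67) in CT, a log2 difference of 4.56 ± 0.33 (adjusted p = 4.9e-10). Snord104 was at 125 to 408 CPM (median 259) in NT and 0.563 to 10.2 CPM (median 2.75) in CT, a log2 difference of 6.19 ± 0.30 (adjusted p = 1.8e-12).

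U3, the box C/D RNA that directs cleavage of the ribosomal RNA precursor, is made from several near-identical genes. The rows of Rnu3b1 to Rnu3b4 held identical values and were counted as 1, with 14.6 to 182 CPM (median 79.1) in NT and 0 counts in every CT library, which makes it at least 263-fold higher in the nucleus when 3 counts per library are taken as the limit that 0 allows. Another row of Rnu3b1 had a log2 difference of 2.64 ± 0.38 (adjusted p = 4.1e-06), with NT from 22.7 to 122 CPM and CT from 3.52 to 54 CPM, and was the 1 tested member whose compartments overlapped. Reads of these copies are divided by the estimation, so the values of single copies are uncertain.

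All 36 H/ACA genes in the table had a higher mean CPM in NT than in CT. 26 passed the filter, 16 of them with 10 counts in no CT library, so that their direction too was fixed by the filter, and the median log2 difference of those tested was 5.82. As a class they took 0.295% ± 0.097 of mature counts in NT and 0.00406% ± 0.00353 in CT (SD, n = 12). Snora73a was at 318 to 942 CPM (median 476) in NT and 4.89 to 55.9 CPM (median 7.66) in CT, a log2 difference of 5.86 ± 0.31 (adjusted p = 7.5e-12). Snora73b was at 357 to 973 CPM (median 503) in NT and 3.54 to 49.8 CPM (median 7.54) in CT, a log2 difference of 6.05 ± 0.34 (adjusted p = 1.4e-11). Snora28, 1 of these 16 with its direction fixed by the filter, had the largest excess, 9.87 to 27.3 CPM (median 16.3) in NT and 0 to 0.438 CPM (median 0) in CT, a log2 difference of 7.46 ± 0.35 (adjusted p = 1.2e-12). Snora57, the smallest, was at 7.87 to 22.6 CPM (median 14.6) in NT and 1.29 to 7.50 CPM (median 1.84) in CT, a log2 difference of 2.71 ± 0.23 (adjusted p = 4.1e-09), still without overlap. With each mouse left out in turn, the medians of the tested box C/D and H/ACA genes ranged from 6.32 to 6.52 and from 5.70 to 6.09. Without both mice of the shallow CT libraries (chosen after seeing the data) the medians were 6.48 and 6.28. Where such an RNA lies within an intron, reads of an unspliced host transcript can match it. How much of the nuclear signal is pre-mRNA of the host was not tested.

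**Figure D1:**
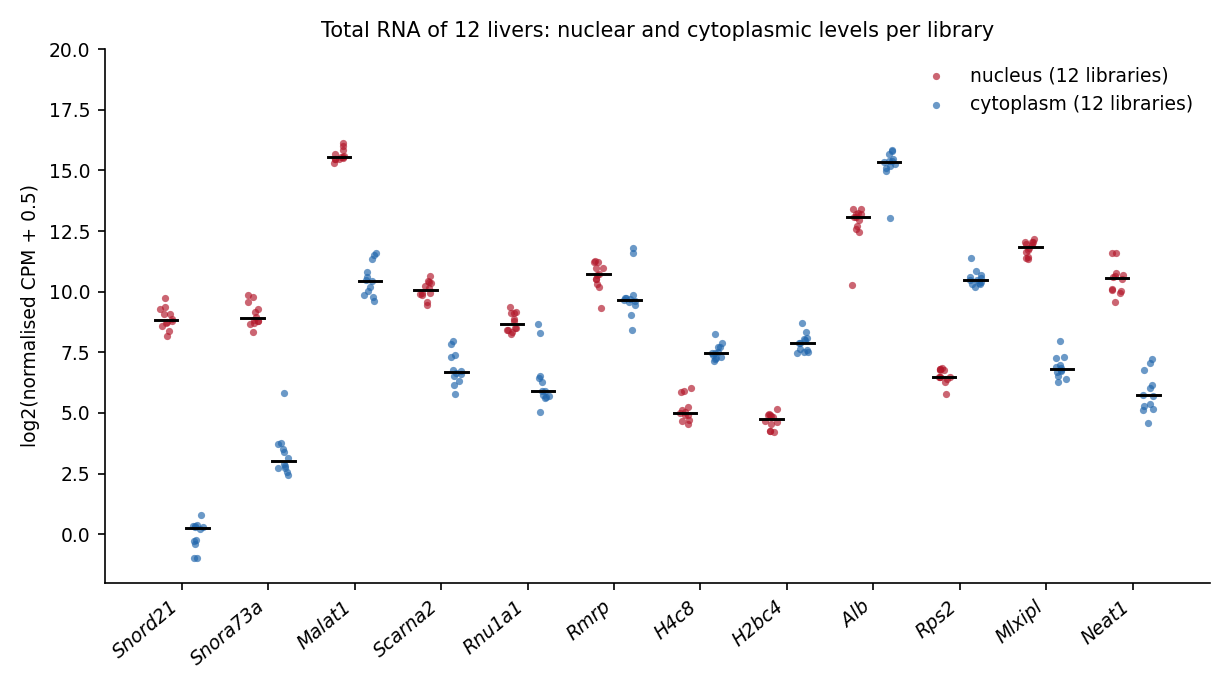
Level of 12 RNAs in each of the 12 nuclear and 12 cytoplasmic libraries of total RNA, as log2 of normalised CPM with 0.5 added (vertical axis). Points are libraries and bars are medians. Snord21 and Snora73a do not overlap between compartments, Rmrp does, and H4c8, H2bc4, Alb and Rps2 lie lower in the nucleus.

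Small Cajal body RNAs were higher in the nucleus by less. All 7 tested of 9 were higher, from 2.62 to 3.57 with a median of 3.24, but 1 of the 7 had 10 counts in no CT library, so that the filter fixed its direction. The class made up 0.219% ± 0.0605 of NT and 0.0158% ± 0.00751 of CT counts (SD, n = 12). Scarna2 was at 701 to 1610 CPM (median 1068) in NT and 54 to 249 CPM (median 102.7) in CT, a log2 difference of 3.24 ± 0.24 (adjusted p = 7.1e-10). Scarna17 had the largest difference, 24.9 to 69.4 CPM (median 45) in NT and 1.98 to 7.08 CPM (median 3.57) in CT, a log2 difference of 3.57 ± 0.20 (adjusted p = 1.3e-11). None of the 7 overlapped between compartments. Without both shallow mice their median was 3.46.

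All 6 tested spliceosomal RNAs were higher in the nucleus as well, at a median of 2.40, and 5 of the 6 overlapped between compartments. Their share was 0.105% ± 0.029 in NT and 0.0188% ± 0.0151 in CT (SD, n = 12). Rnu1a1, a gene of U1 that recognises the 5′ splice site, was at 303 to 655 CPM (median 403) in NT and 32.5 to 404 CPM (median 59.7) in CT, a log2 difference of 2.48 ± 0.31 (adjusted p = 6.9e-07). Its difference was negative in 1 mouse, ZT4 replicate 2 (log2 -0.15), and 0.58 in ZT0 replicate 2, the mice with shallow CT libraries, against 1.74 to 3.74 in the 10 others. Without both, the difference of Rnu1a1 was 2.88 ± 0.18 and the median of the list 2.73. Rnu12, of the minor spliceosome, was at 134 to 395 CPM (median 216) in NT and 14.3 to 240.4 CPM (median 76.5) in CT, a log2 difference of 1.58 ± 0.34 (adjusted p = 3.4e-04). Rnu11, of the same particle, had the smallest difference, 2.32 to 13.3 CPM (median 4.17) in NT and 0.422 to 8.17 CPM (median 1.76) in CT, a log2 difference of 1.37 ± 0.37 (adjusted p = 0.0027). Rnu2-10, a gene of U2 that pairs with the branch point, was at 73.7 to 168 CPM (median 108.8) in NT and 9.09 to 52.4 CPM (median 21) in CT, a log2 difference of 2.32 ± 0.25 (adjusted p = 9.9e-08).

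Of other RNAs without a poly(A) tail, only Rmrp, Terc and Bc1 of the list fixed for them were in the table, and they differed in direction. Rmrp is the RNA of RNase MRP, an enzyme that cleaves the precursor of ribosomal RNA, and its transcript is shown because total RNA alone measures it. It lies at chr4:43492783-43493063 (minus strand), and no base is marked.
Rmrp: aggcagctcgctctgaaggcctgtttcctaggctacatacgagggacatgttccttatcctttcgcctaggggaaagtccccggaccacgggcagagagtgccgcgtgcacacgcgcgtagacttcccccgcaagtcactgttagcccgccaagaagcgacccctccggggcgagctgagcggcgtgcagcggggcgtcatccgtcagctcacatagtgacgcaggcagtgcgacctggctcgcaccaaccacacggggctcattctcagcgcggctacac

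Rmrp had 7351 to 28858 counts in each NT and 2438 to 16886 in each CT library and 0 in all 24 libraries of polyadenylated RNA. It was at 635 to 2484 CPM (median 1676) in NT and 343 to 3520 CPM (median 818) in CT, a log2 difference of 0.83 ± 0.30 that did not pass the test (adjusted p = 0.017). It was higher in the nucleus in 9 of 12 mice, and the 3 others were ZT0 replicate 2 and both mice of ZT4, at log2 -0.80, -0.56 and -1.26. Without ZT0 replicate 2 the difference was 0.98 (adjusted p = 0.0056), without ZT4 replicate 2 it was 1.01 (adjusted p = 0.0027), and without both it was 1.19 ± 0.25 (adjusted p = 0.00035). Rmrp thus passed the test without either of the 2 shallowest CT libraries. Its direction depended on the scaling. The median of Rmrp, Terc and Bc1, which is the value of Rmrp with TMM, was 1.49 when libraries were scaled by mature counts alone. It turned to -0.47 when they were scaled by pre-mRNA and mature counts together, where 0 of the 3 passed as higher. Terc, the template RNA of telomerase, was at 24 to 65.3 CPM (median 48.1) in NT and 6.60 to 23.6 CPM (median 11.2) in CT, a log2 difference of 1.91 ± 0.20 (adjusted p = 9.5e-08). Bc1, a small cytoplasmic RNA known best from neurons, was lower in the nucleus, at 1.02 to 2.22 CPM (median 1.51) in NT and 1.69 to 20.2 CPM (median 4.52) in CT, a log2 difference of -1.79 ± 0.28 (adjusted p = 1.4e-05), with at most 28 counts in an NT library.

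Replication-dependent histone mRNAs lay on both sides of 0, with a smaller share higher in the nucleus than among all genes. Of 53 in the table, 52 were tested, 23 were lower in the nucleus, 4 were higher and 25 did not pass the test, against 37.6% lower and 42.1% higher among all genes. The median difference was -0.61, with single genes from -3.23 to 2.09, and it turned to 0.06 when libraries were scaled by mature counts alone. The class took 0.0895% ± 0.0235 of NT and 0.12% ± 0.0293 of CT counts (SD, n = 12), shares that overlapped. Without both shallow mice 19 were lower and 4 higher (median -0.42). The sequence that replaces the tail is shown for histones across this range, with 5 bases on each side of the stem-loop, whose 6-base stem, 4-base loop and 6-base stem are in capitals.
H4c8: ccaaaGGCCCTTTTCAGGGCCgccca
H1f2: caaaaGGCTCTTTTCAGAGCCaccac
H4c4: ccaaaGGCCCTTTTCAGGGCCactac
H2ac19: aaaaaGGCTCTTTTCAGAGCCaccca
H4c9: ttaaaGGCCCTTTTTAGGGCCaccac
Hist1h4n: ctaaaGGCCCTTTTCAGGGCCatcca

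The genes of these transcripts lie at chr13:23531050-23531519 (plus strand), chr13:23738808-23740367 (plus strand), chr13:23581598-23582735 (plus strand), chr3:96239749-96240276 (minus strand), chr13:22040636-22041362 (minus strand) and chr13:21831767-21832196 (minus strand) of GRCm38, and the stretches come from the GENCODE transcripts. The pattern searched was GGNNNNTTNN followed by the reverse complement of its first 6 bases, on the transcribed strand only. It was found in 35 of 53 replication-dependent histones, in 1 of 8 variant histones and in 94 of 21840 other protein-coding genes (0.43%). Of the 35 with the stem-loop, 17 were lower and 3 higher in the nucleus (median -0.54), and of the 17 tested without it 6 were lower and 1 higher (median -0.73). In H4c8 and H2ac19 the stem-loop ends 46 and 35 bases before the annotated 3′ end, whereas in H1f2 and H4c4 the annotation goes on for 840 and 770 bases.

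H4c8, a gene of histone H4, was at 22.9 to 64.6 CPM (median 31.8) in NT and 140.1 to 302 CPM (median 175) in CT, a log2 difference of -2.38 ± 0.13 (adjusted p = 1.5e-11). H2bc4, of histone H2B, was lowest of the class, at 17.8 to 34.9 CPM (median 26.6) in NT and 178 to 423 CPM (median 235) in CT, a log2 difference of -3.23 ± 0.12 (adjusted p = 9.0e-14). Both were lower in the nucleus in all 12 mice without overlap. H1f2, of linker histone H1, was at 35.9 to 128 CPM (median 55) in NT and 100.9 to 204 CPM (median 134) in CT, a log2 difference of -1.26 ± 0.18 (adjusted p = 5.4e-06). H4c4, shown for its stem-loop and chosen after its values were seen, had a log2 difference of -1.15 ± 0.12 (adjusted p = 6.2e-08). H2ac19, of histone H2A, was at 53.6 to 144 CPM (median 76) in NT and 49.7 to 158 CPM (median 110.7) in CT and did not pass the test (log2 difference -0.30, adjusted p = 0.16). H2bc21 was the highest, at 10.1 to 25.9 CPM (median 14.3) in NT and 1.69 to 6.15 CPM (median 3.28) in CT, a log2 difference of 2.09 ± 0.18 (adjusted p = 7.8e-09). The others that were higher were H4c9 (log2 difference 1.79), Hist1h4n (1.67) and H2ac20 (0.72, which turned to -0.58 when libraries were scaled by pre-mRNA and mature counts together). Copies of a histone type are near identical, so values of single genes are uncertain.

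In polyadenylated RNA most of these histones had few counts. All 53 reached a median of 10 counts in NT or CT, 37 of them in neither NA nor CA and 16 in at least 1 of these. H4c8 had 1117 to 2738 counts per CT library and 0 to 50 per CA library, although CA was sequenced more deeply. Of those 16, H2bc21 had a median of 509 counts in NA and 51 in CA, and H1f2 and H2bc4 together held 12.6% ± 2.75 of all histone counts in NT, 25.9% ± 3.39 in CT, 55.6% ± 12.1 in NA and 91.9% ± 2.33 in CA (SD, n = 12). The 8 variant histone genes, whose mRNAs have tails, all reached 10 counts in each population. Among them H3f3a, of the replacement histone H3.3, was at 15 to 20.9 CPM (median 18.2) in NT and 166 to 297 CPM (median 184) in CT, a log2 difference of -3.44 ± 0.10 (adjusted p = 6.5e-15), H3f3b of the same protein had a log2 difference of -1.03, and H2aj was higher in the nucleus (0.56, and -0.75 when scaled by all counts). Of the small RNAs, 26 of 43 box C/D, 13 of 32 H/ACA, 6 of 8 small Cajal body and 5 of 7 spliceosomal RNAs that reached a median of 10 counts in total RNA did so in neither NA nor CA.

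**Figure D2:**
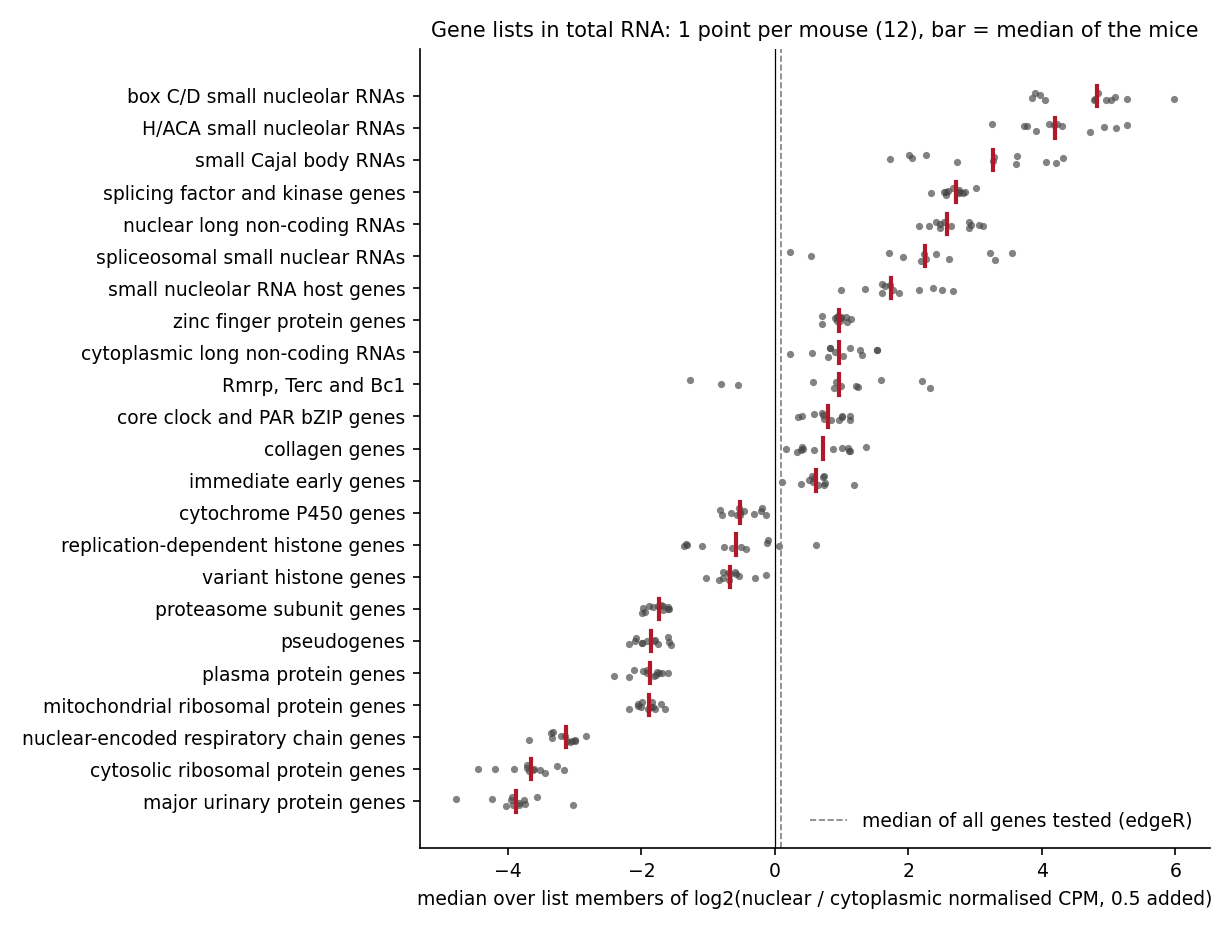
Median over the members of each gene list of the log2 ratio of nuclear to cytoplasmic normalised CPM, 0.5 added (horizontal axis), with 1 point per mouse and a bar at the median of the 12 mice. The dashed line is the median of all genes tested. With 0.5 added, low values pull ratios towards 0, so the small RNAs lie nearer to 0 here than in the fitted medians. Only members that passed the filter are included. All 12 points are below 0 for ribosomal protein genes.

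Long non-coding RNAs known from the nucleus took 6.78% ± 0.955 of mature counts in NT and 0.145% ± 0.071 in CT (SD, n = 12). Of 12 tested, 11 were higher and none was lower, at a median of 3.37. Malat1, an RNA of nuclear speckles whose 3′ end is a triple helix and not a poly(A) tail, was at 40395 to 71176 CPM (median 48569) in NT and 794 to 3088 CPM (median 1407) in CT, a log2 difference of 5.12 ± 0.20 (adjusted p = 1.1e-13). Neat1, the scaffold of paraspeckles, was at 771 to 3100 CPM (median 1514) in NT and 23.8 to 148 CPM (median 52.6) in CT, a log2 difference of 4.68 ± 0.17 (adjusted p = 4.9e-14). Firre, which binds chromatin, was at 322 to 433 CPM (median 358) in NT and 6.88 to 14.7 CPM (median 9.23) in CT, a log2 difference of 5.23 ± 0.12 (adjusted p = 9.2e-16). The member that did not pass was Mir22hg, with a log2 difference of -0.06 that turned to 0.59 when scaled by mature counts. Of 11 long non-coding RNAs known from the cytoplasm, 7 were higher in the nucleus and 2 lower (median 0.98, and -0.32 when scaled by all counts). Snhg5 of this list was at 9.42 to 21.3 CPM (median 18.8) in NT and 0.582 to 4.38 CPM (median 2.08) in CT, a log2 difference of 2.95 ± 0.21 (adjusted p = 3.1e-10).

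The host genes that carry small nucleolar RNAs in their introns were mostly higher in the nucleus too. Of 16 tested, 13 were higher in the nucleus and 2 lower, at a median of 2.00. Snhg11 was the highest, at 58.2 to 182 CPM (median 107.1) in NT and 1.04 to 3.75 CPM (median 2.22) in CT, a log2 difference of 5.54 ± 0.13 (adjusted p = 1.3e-15). Snhg17 was at 85.6 to 190.1 CPM (median 119.02) in NT and 2.57 to 8.90 CPM (median 5.26) in CT, a log2 difference of 4.62 ± 0.15 (adjusted p = 1.3e-14). Gas5, whose spliced RNA is degraded when it is translated, was at 112.9 to 317 CPM (median 179) in NT and 52.2 to 151 CPM (median 89.8) in CT, a log2 difference of 0.98 ± 0.11 (adjusted p = 2.0e-07), and its direction turned (-0.32) when scaled by all counts. Snhg6 and Epb41l4aos were lower, at log2 differences of -1.49 and -0.73.

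Among protein-coding genes, those of splicing factors and of the kinases that phosphorylate them were high in the nucleus. Of 40 tested, 36 were higher and 2 lower, at a median of 2.77, and 35 of the 40 did not overlap between compartments. With protein-coding transcripts alone the median of this list was 1.45, with 30 higher and 4 lower. Leng8 was the highest, at 569 to 908 CPM (median 755) in NT and 8.50 to 17.2 CPM (median 11.6) in CT, a log2 difference of 5.92 ± 0.12 (adjusted p = 3.2e-16). Srrm2, a large protein of nuclear speckles, was at 1292 to 2752 CPM (median 1764) in NT and 141 to 220.1 CPM (median 162) in CT, a log2 difference of 3.43 ± 0.14 (adjusted p = 1.7e-13). Ddx5, an RNA helicase, was at 1551 to 3086 CPM (median 2076) in NT and 301 to 527 CPM (median 368) in CT, a log2 difference of 2.53 ± 0.10 (adjusted p = 2.7e-13). Rsrp1 was at 1118 to 3121 CPM (median 2174) in NT and 51.3 to 125 CPM (median 75.7) in CT, a log2 difference of 4.66 ± 0.19 (adjusted p = 1.9e-13), but with its protein-coding transcripts alone it was lower in the nucleus (a log2 difference of -0.79 ± 0.22), so that its nuclear RNA was counted on transcripts annotated as other types. The members that were lower were Srsf9 (log2 difference -0.75) and Nono (-0.24, and 0.42 when scaled by mature counts).

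The study named several genes for their place in the cell, 3 of those below as enriched in the nucleus. It compared polyadenylated RNA, with levels calibrated to mRNA molecules per cell. The values here are of total RNA and relative to the bulk of genes, so their sizes cannot be set against the ratios of the study. Mlxipl, of the glucose-responsive transcription factor ChREBP, was at 2581 to 4672 CPM (median 3717) in NT and 78 to 252 CPM (median 111.9) in CT, a log2 difference of 4.91 ± 0.15 (adjusted p = 8.4e-15). Nlrp6, of an inflammasome sensor, was at 760.1 to 1189 CPM (median 952) in NT and 45 to 103.01 CPM (median 85.5) in CT, a log2 difference of 3.52 ± 0.12 (adjusted p = 2.4e-14). Gcgr, of the glucagon receptor, was at 745 to 1034 CPM (median 932) in NT and 94.4 to 156 CPM (median 130.3) in CT, a log2 difference of 2.88 ± 0.10 (adjusted p = 3.0e-14). With its protein-coding transcripts alone the difference of Gcgr was 1.75. All 3 were higher in each of the 12 mice without overlap. Actb, of cytoplasmic actin, was lower in the nucleus, at 197 to 370.3 CPM (median 327) in NT and 619.6 to 1908 CPM (median 1162) in CT, a log2 difference of -1.93 ± 0.11 (adjusted p = 1.5e-11). Other genes among the 10 highest with a mean of at least 10 CPM over the 24 libraries were Cyp21a2-ps, a pseudogene of steroid 21-hydroxylase (28.5 to 145 CPM (median 44.6) in NT and 0.0858 to 2.11 CPM (median 0.380) in CT, a log2 difference of 6.84 ± 0.19 (adjusted p = 3.3e-15)), Erdr1 (log2 difference 6.78) and Ankrd23 (6.77), while the others of the 10 were box C/D RNAs.

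Zinc finger genes, many of which encode transcription factors, leaned to the nucleus. Of 353 tested, 241 were higher and 33 lower, at a median of 1.02 that turned to -0.28 when scaled by all counts. Zfp692 was the highest, at 24.1 to 60.6 CPM (median 39.2) in NT and 0.826 to 2.71 CPM (median 1.77) in CT, a log2 difference of 4.44 ± 0.11 (adjusted p = 1.9e-15). Zfp871 was at 188 to 549 CPM (median 356) in NT and 83 to 213 CPM (median 131) in CT, a log2 difference of 1.44 ± 0.14 (adjusted p = 4.8e-08). Zfp969 was listed at 0 in every NT library and at 3.56 to 25.8 CPM in CT, at least 42-fold lower in the nucleus with 3 counts per library as the limit.

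Collagen genes divided. Of 19 tested, 11 were higher in the nucleus and 3 lower, at a median of 0.81 that turned to -0.49 when scaled by all counts. Col5a3, of a minor fibrillar collagen, was at 315 to 627 CPM (median 462) in NT and 6.67 to 16.4 CPM (median 9.96) in CT, a log2 difference of 5.53 ± 0.10 (adjusted p = 1.5e-16). Col27a1 was at 94.3 to 1464 CPM (median 613) in NT and 3.03 to 36.5 CPM (median 12.7) in CT, a log2 difference of 5.38 ± 0.12 (adjusted p = 9.2e-16). Col3a1, Col1a2 and Col14a1, of the collagens of connective tissue, were those lower in the nucleus, at -0.65, -0.46 and -0.46, and each turned positive (0.01, 0.21 and 0.21) when scaled by mature counts.

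Core clock and PAR bZIP genes, whose mRNA levels cycle over the day, were higher in the nucleus for 10 of 18 and lower for 2 (median 0.63, and -0.68 when scaled by all counts). Per2, of a repressor of the clock, was at 40.7 to 742 CPM (median 196) in NT and 4.38 to 59.3 CPM (median 21.2) in CT, a log2 difference of 3.32 ± 0.16 (adjusted p = 2.7e-12), and the compartments overlapped. Tef was at 40.2 to 707 CPM (median 214) in NT and 24.4 to 215 CPM (median 101.5) in CT, a log2 difference of 1.30 ± 0.15 (adjusted p = 3.7e-07), but turned to -0.01 when scaled by all counts. Nfil3, of a repressor that cycles opposite to the PAR bZIP factors, was lower in the nucleus, at 3.21 to 35.3 CPM (median 14.9) in NT and 9.0 to 64.6 CPM (median 34.4) in CT, a log2 difference of -1.13 ± 0.10 (adjusted p = 4.8e-09). Rora was lower as well (-0.58), but not when scaled by mature counts (0.08). Of 20 tested immediate early genes, which respond within minutes to stimuli and whose mRNAs are short-lived, 11 were higher and none lower (median 0.56, and -0.75 when scaled by all counts). Zfp36, of a protein that destabilises AU-rich mRNAs, was at 93.1 to 843 CPM (median 304) in NT and 22.3 to 65.5 CPM (median 44.6) in CT, a log2 difference of 2.83 ± 0.14 (adjusted p = 3.6e-12). Junb was at 16.5 to 189.9 CPM (median 96.1) in NT and 10.1 to 58.9 CPM (median 28.5) in CT, a log2 difference of 1.38 ± 0.20 (adjusted p = 4.5e-06).

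The cytoplasmic end was held by mRNAs of abundant small proteins. Of 82 cytosolic ribosomal protein genes, 79 were lower in the nucleus and 2 higher, at a median of -3.73, and they made up 0.362% ± 0.058 of NT and 2.72% ± 0.617 of CT counts (SD, n = 12). Rps2 was at 54.3 to 114.5 CPM (median 89.6) in NT and 1172 to 2658 CPM (median 1438) in CT, a log2 difference of -4.03 ± 0.13 (adjusted p = 1.4e-14). Rpl41, of the smallest protein of the large subunit, was at 37.6 to 56.5 CPM (median 47.8) in NT and 633 to 2151 CPM (median 1015) in CT, a log2 difference of -4.48 ± 0.14 (adjusted p = 1.6e-14). Rpl35 was the lowest, at 0.519 to 3.05 CPM (median 1.41) in NT and 43.4 to 138 CPM (median 65.6) in CT, a log2 difference of -5.60 ± 0.22 (adjusted p = 1.5e-13). Rpl13a, the host of Snord34 and Snord32a, was at 42.4 to 101.2 CPM (median 74.2) in NT and 662 to 2477 CPM (median 1006) in CT, a log2 difference of -3.94 ± 0.19 (adjusted p = 1.6e-12). Snord34 had 267 to 1051 counts per NT and 0 to 1 per CT library. Snord32a had 587 to 1768 counts per NT and 0 to 6 per CT library. Both small RNAs passed the filter on low counts through NT alone, which fixed their direction. The contrast with the mRNA of their host therefore does not test that direction. The 2 genes that were higher in the nucleus, Rpl12 (log2 difference 1.55) and Rpl10 (1.32), were at -6.44 and -3.50 when only their protein-coding transcripts were counted.

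The nuclear genes of the mitochondrial respiratory chain were lower in the nucleus without exception, 83 of 83 tested at a median of -3.28. Ndufa4 was at 10.4 to 28.4 CPM (median 24.7) in NT and 339.8 to 1045 CPM (median 665) in CT, a log2 difference of -4.72 ± 0.14 (adjusted p = 6.4e-15). Atp5b, of the catalytic subunit of ATP synthase, was at 164 to 297 CPM (median 271) in NT and 658 to 1611 CPM (median 1200) in CT, a log2 difference of -2.20 ± 0.08 (adjusted p = 9.5e-14). Ndufb4c was the lowest (-4.92) and Uqcc1, an assembly factor, the least low (-0.45, and 0.21 when scaled by mature counts). Genes of mitochondrial ribosomal proteins were lower for 67 of 78 and higher for 5, at a median of -2.12. Mrpl12 was at 18.2 to 37.3 CPM (median 27.9) in NT and 169 to 326 CPM (median 224) in CT, a log2 difference of -3.0 ± 0.11 (adjusted p = 8.3e-14), while Mrpl18 was at 105.1 to 219 CPM (median 151) in NT and 41.5 to 70.3 CPM (median 55.4) in CT, a log2 difference of 1.46 ± 0.11 (adjusted p = 9.6e-10). Of 37 proteasome genes, 36 were lower and none was higher (median -1.77), from Psmd10 at -3.36 to Psmd11 at -0.38, which turned to 0.28 when scaled by mature counts, and Psmd3 did not pass the test (0.01, adjusted p = 0.96, and -1.30 when scaled by all counts).

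Major urinary proteins are lipocalins that male mouse liver secretes in large amounts. Their genes took 18.1% ± 5.23 of CT and 1.79% ± 0.572 of NT counts (SD, n = 12), and 19 of 21 tested were lower in the nucleus, at a median of -3.98. Mup7 was at 512 to 5119 CPM (median 3668) in NT and 10855 to 96224 CPM (median 64125) in CT, a log2 difference of -4.18 ± 0.17 (adjusted p = 2.5e-13). Mup20, of the pheromone darcin, was at 161 to 2268 CPM (median 1754) in NT and 2603 to 33190 CPM (median 26299) in CT, a log2 difference of -3.87 ± 0.14 (adjusted p = 8.2e-14). The lowest value of each was in ZT4 replicate 1, whose share of these genes was 4.15% in CT and 0.340% in NT. The 1 member that was higher in the nucleus, Mup10 (3.48), was at -6.59 with its protein-coding transcripts alone. Copies of this family are nearly identical, and estimated counts of single members are uncertain.

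Of 47 genes of other plasma proteins, 44 were lower in the nucleus and 2 higher, at a median of -1.81, and their share was 6.90% ± 1.29 in NT and 16.7% ± 3.0 in CT (SD, n = 12). Alb, of serum albumin, was at 1226 to 10947 CPM (median 8664) in NT and 8315 to 59162 CPM (median 42288) in CT, a log2 difference of -2.41 ± 0.13 (adjusted p = 1.6e-11), and overlapped through ZT4 replicate 1, whose CT library had the lowest level. Apoc1, of an apolipoprotein, was the lowest, at 315 to 646 CPM (median 475) in NT and 4802 to 13956 CPM (median 6582) in CT, a log2 difference of -3.82 ± 0.15 (adjusted p = 1.6e-13). Serpina3k was at 728 to 4888 CPM (median 1491) in NT and 9588 to 24526 CPM (median 14988) in CT, a log2 difference of -3.01 ± 0.19 (adjusted p = 9.0e-11). Apob, of the main protein of very low density lipoprotein, was at 4348 to 6304 CPM (median 5322) in NT and 8563 to 28339 CPM (median 16498) in CT, a log2 difference of -1.61 ± 0.14 (adjusted p = 4.9e-09). Itih3 (1.89) and C4b (1.19) were higher in the nucleus, but Itih3 was at -1.43 with protein-coding transcripts alone and C4b turned to -0.12 when scaled by all counts.

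Cytochrome P450 genes, of the enzymes that oxidise drugs, steroids and fatty acids, were on both sides. Of 58 tested, 17 were higher in the nucleus and 28 lower, at a median of -0.38 that turned to 0.27 when scaled by mature counts, and the summed share was alike, 1.27% ± 0.274 in NT and 1.29% ± 0.149 in CT (SD, n = 12). Cyp2e1, which oxidises ethanol, was at 788 to 1937 CPM (median 1096) in NT and 2686 to 5018 CPM (median 4068) in CT, a log2 difference of -1.81 ± 0.13 (adjusted p = 6.1e-10). Cyp3a25 was at 485 to 3506 CPM (median 1071) in NT and 150.2 to 657 CPM (median 333) in CT, a log2 difference of 1.88 ± 0.25 (adjusted p = 1.4e-06), and its neighbour Cyp3a11 at 9.25 to 325 CPM (median 113.8) in NT and 64.3 to 1597 CPM (median 899) in CT, a log2 difference of -2.95 ± 0.17 (adjusted p = 1.8e-11). Cyp2j9 was at 46.2 to 125 CPM (median 84.5) in NT and 2.23 to 5.06 CPM (median 3.66) in CT, a log2 difference of 4.45 ± 0.11 (adjusted p = 1.4e-15). Cyp7a1, the rate-limiting enzyme of bile acid synthesis, was higher in the nucleus (a log2 difference of 0.82 ± 0.20 (adjusted p = 0.001)), but turned to -0.48 when scaled by all counts.

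Pseudogenes held the extremes of the cytoplasmic end. Of 79 tested genes named as pseudogenes, 46 were lower in the nucleus and 26 higher (median -2.08). Rpl14-ps1, a copy of a ribosomal protein gene, was listed at 0 in every NT library and at 66.4 to 223 CPM in CT, at least 440-fold lower in the nucleus with 3 counts per library as the limit. Cox7c-ps1 was at 0 to 0.173 CPM (median 0) in NT and 23.5 to 126 CPM (median 61.6) in CT, a log2 difference of -11.48 ± 0.28 (adjusted p = 1.3e-15). Mup-ps17 was at 0 to 29.2 CPM (median 2.60) in NT and 205 to 15953 CPM (median 3161) in CT, a log2 difference of -10.56 ± 0.72 (adjusted p = 2.5e-10). Reads of such copies match the parent gene as well, and a value of 0 can be a choice of the estimation between near-identical sequences. Rnaset2a, a protein-coding gene with a duplicate nearby, was also listed at 0 in NT and at 27.8 to 55.9 CPM in CT (at least 136-fold lower). On the other side, Cyp2d37-ps, a copy of a P450 gene, was at 232 to 620.3 CPM (median 369) in NT and 12.5 to 36.3 CPM (median 22.3) in CT, a log2 difference of 4.19 ± 0.09 (adjusted p = 5.1e-16).

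Markers of other cell types of the liver differed between the fractions, and their part in the results above was not tested. All 7 erythrocyte genes were lower in the nucleus (median -2.27), with summed shares of 0.0124% to 0.0614% in NT and 0.0464% to 0.219% in CT. Hbb-bs, of the beta chain of haemoglobin, was at 27.1 to 183 CPM (median 87.5) in NT and 201 to 1699 CPM (median 581) in CT, a log2 difference of -2.91 ± 0.20 (adjusted p = 2.7e-10). Of 16 genes of sinusoidal endothelial cells, 15 were higher and none was lower (median 1.31), with shares of 0.115% to 0.224% in NT and 0.0267% to 0.0853% in CT, and Stab2, their scavenger receptor, was at 196 to 414 CPM (median 226) in NT and 36 to 114.2 CPM (median 47.7) in CT, a log2 difference of 2.26 ± 0.08 (adjusted p = 6.4e-14). Of 16 Kupffer cell and macrophage genes, 5 were higher and 3 lower (median -0.04), with shares of 0.089% to 0.207% in NT and 0.0515% to 0.205% in CT. Csf1r of this list was higher (1.14, and -0.16 when scaled by all counts) and Lyz2 lower (-1.02). Of 13 stellate cell genes, 3 were higher and 8 lower (median -0.65), with shares of 0.0429% to 0.0708% in NT and 0.034% to 0.0779% in CT, and Rgs5, of pericytes, was the lowest (-2.71). Of 6 tested lymphocyte and neutrophil genes, 5 were higher and none was lower (median 2.29), with shares of 0.00879% to 0.0273% in NT and 0.0013% to 0.00768% in CT, and 1 of 3 bile duct genes was higher (median 0.20), with 0.00357% to 0.0068% in NT and 0.00151% to 0.00756% in CT. No gene of these 6 lists was at 0 in all 24 libraries. Of the 18 hepatocyte genes, 14 were lower in the nucleus and none was higher (median -1.63).

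The difference between compartments followed the length of the mRNA. Protein-coding genes were split into quartiles of abundance-weighted transcript length, and the median log2 difference rose from -1.22 in the shortest (180 to 1750 bases) over -0.09 and 0.41 to 0.77 in the longest quartile (4056 to 31963 bases). In the shortest quartile 140 genes were called higher in the nucleus and 882 lower, and in the longest 465 and 37. Spearman's rho of length and difference was 0.45 across 11128 genes, which share the same libraries and are not independent. In polyadenylated RNA the medians were -1.45, -0.02, 0.65 and 1.34, a wider span than in total RNA. The 211 genes with 1 exon, whose unspliced and mature RNA cannot be told apart by sequence, had a median of 0.38, against 0.06 for 10917 genes with more exons.

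**Figure D3:**
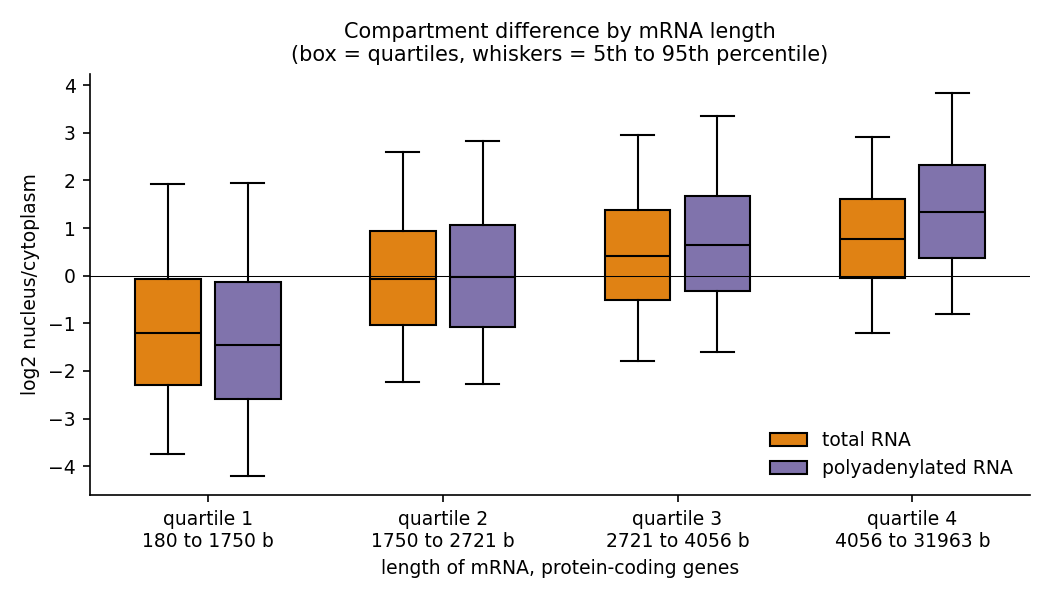
Log2 difference, nucleus minus cytoplasm (vertical axis), of protein-coding genes by quartile of mRNA length in bases (horizontal axis), for total and for polyadenylated RNA. Boxes span the quartiles with a line at the median, and whiskers reach the 5th and 95th percentiles. Medians go from -1.22 to 0.77 in total RNA and from -1.45 to 1.34 in polyadenylated RNA.

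Whether the compartment difference depended on the tail was tested over all 48 libraries of the 12 livers, with the mouse as a block. Of 11649 genes tested, 514 had a nuclear excess larger by over 1 on the log2 scale in total than in polyadenylated RNA (4.41%) and 947 a smaller one (8.13%), at an adjusted p under 0.01. The libraries of both kinds were prepared with different kits, so tail selection and library preparation cannot be told apart. The median over all genes was -0.17, which moved to -0.001 with DESeq2, where 723 genes were positive and 654 negative (52.5% positive, against 35.2% with edgeR), and to -0.57 when scaled by mature counts. The genes with a smaller excess in total RNA were long, with a median length of 5070 bases against 2184 for the positive and 2721 for all, and 611 of the negative calls fell in the longest quartile.

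Only 16 of the box C/D and 15 of the H/ACA RNAs had enough counts for this test, and 3 and 0 of them were positive and 0 and 1 negative at an adjusted p under 0.01 whatever the size, against 12.8% positive and 26.5% negative among all genes. The counts of the lists that follow are read against the same shares. For most of these RNAs a difference was not detectable at the depth of NA and CA, where Snora73a had 80 and 7 counts in all 12 libraries together, against 79995 in NT. Snord13, which is transcribed from a gene of its own, had 37 to 113.4 CPM (median 65.4) in NT, 0.126 to 4.30 CPM (median 1.30) in CT, 0.123 to 1.43 CPM (median 0.727) in NA and 0 to 1.86 CPM (median 0.0846) in CA, log2 differences of 5.56 in total and 1.64 in polyadenylated RNA that differed by 3.92 ± 0.81 (adjusted p = 9.7e-05). Of 36 histone genes tested, 4 were positive and 9 negative, shares near those of all genes. H2ac19 had its large difference in polyadenylated RNA, with 48.3 to 130.1 CPM (median 68.7) in NT, 44.6 to 142 CPM (median 99.3) in CT, 0 to 0.440 CPM (median 0) in NA and 0.820 to 35.5 CPM (median 10.3) in CA, log2 differences of -0.25 in total and -8.34 in polyadenylated RNA that differed by 8.09 ± 0.61 (adjusted p = 1.5e-13). H4c14, of histone H4, went the other way, with 11.6 to 22.4 CPM (median 17.2) in NT, 16.3 to 67.5 CPM (median 22.2) in CT, 1.23 to 8.50 CPM (median 3.42) in NA and 0 to 0.217 CPM (median 0.0834) in CA, log2 differences of -0.63 in total and 5.23 in polyadenylated RNA that differed by -5.86 ± 0.47 (adjusted p = 4.4e-13). Both differences rest on few counts, at most 15 of H2ac19 in an NA library and at most 4 of H4c14 in a CA library.

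Against 12.8% positive and 26.5% negative among all genes, 33 of 82 ribosomal protein genes were positive and none negative, and for mitochondrial ribosomal proteins 42 of 78 were positive and 1 negative. The medians of both lists were below 0 in each kind of RNA (-3.72 in total and -4.22 in polyadenylated RNA for the first, -2.10 and -2.26 for the second), so positive here is a smaller cytoplasmic excess. The median differences between RNA types were small, 0.45 and 0.42. Scaling by mature counts moved the median over all genes from -0.17 to -0.57, and the counts of these lists under that scaling are not given here. Collagen genes were negative for 10 of 20 and positive for none, with medians of 0.85 in total and 2.01 in polyadenylated RNA, and zinc finger genes were negative for 29.5% and positive for 12.3% of 359, near the shares of all genes.

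Among genes with a mean of at least 10 CPM over the 48 libraries and the same sign in all 12 mice, the 10 largest positive differences beside H2ac19 and Snord13 were of genes of several kinds. Rbm15, of a protein that recruits the m6A methyltransferase, was measured far more in total than in polyadenylated RNA of both compartments, with 133 to 196 CPM (median 149) in NT, 11.8 to 23.6 CPM (median 18.1) in CT, 1.47 to 5.60 CPM (median 2.90) in NA and 1.99 to 7.68 CPM (median 4.62) in CA, log2 differences of 3.12 in total and -0.55 in polyadenylated RNA that differed by 3.67 ± 0.22 (adjusted p = 1.9e-16). Dleu2, a long non-coding RNA that hosts microRNAs, was nuclear in total and cytoplasmic in polyadenylated RNA, with 27.3 to 72.5 CPM (median 55.9) in NT, 7.09 to 23.4 CPM (median 12.9) in CT, 2.82 to 11.9 CPM (median 4.19) in NA and 7.56 to 30.2 CPM (median 15.6) in CA, log2 differences of 2.02 in total and -1.90 in polyadenylated RNA that differed by 3.91 ± 0.23 (adjusted p = 1.3e-16). Naa80, of the acetyltransferase of actin, had 13.5 to 36.4 CPM (median 26.4) in NT, 0.516 to 19.2 CPM (median 10.1) in CT, 0 to 8.87 CPM (median 0) in NA and 5.92 to 21.4 CPM (median 11.4) in CA, log2 differences of 1.62 in total and -4.63 in polyadenylated RNA that differed by 6.25 ± 0.74 (adjusted p = 6.4e-09). Sap18, of a subunit of the exon junction-associated ASAP complex, had 13.4 to 22.5 CPM (median 19.3) in NT, 17.8 to 29.6 CPM (median 23.8) in CT, 1.44 to 5.58 CPM (median 4.49) in NA and 30.6 to 70.6 CPM (median 58.4) in CA, log2 differences of -0.33 in total and -3.71 in polyadenylated RNA that differed by 3.38 ± 0.18 (adjusted p = 1.6e-17). Lrg1, of a plasma glycoprotein, had 37.6 to 270.2 CPM (median 55.4) in NT, 92.5 to 949 CPM (median 224) in CT, 0.971 to 27.1 CPM (median 4.40) in NA and 38.9 to 717 CPM (median 119.3) in CA, log2 differences of -1.57 in total and -4.43 in polyadenylated RNA that differed by 2.86 ± 0.39 (adjusted p = 8.1e-08). The others were 4632427E13Rik (3.77), Scp2-ps2 (3.35) and Tmem254a (2.92).

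On the negative side, Foxo1, of a transcription factor under insulin control, was lower in the nucleus in total RNA, with 1.62 to 12.8 CPM (median 4.39) in NT, 20.7 to 63.1 CPM (median 35.8) in CT, 27.1 to 58.6 CPM (median 34.7) in NA and 16.6 to 49 CPM (median 27.1) in CA, log2 differences of -3.10 in total and 0.39 in polyadenylated RNA that differed by -3.49 ± 0.23 (adjusted p = 3.4e-15). Glcci1 had its large difference in polyadenylated RNA, with 5.86 to 22.8 CPM (median 15.5) in NT, 8.07 to 19.4 CPM (median 14.5) in CT, 6.96 to 15.6 CPM (median 10.5) in NA and 0 to 2.41 CPM (median 0.377) in CA, log2 differences of 0.04 in total and 4.07 in polyadenylated RNA that differed by -4.03 ± 0.39 (adjusted p = 5.7e-11). Pxdn, of peroxidasin, had 15.9 to 34.2 CPM (median 22.4) in NT, 4.47 to 12.4 CPM (median 8.0) in CT, 6.50 to 16.5 CPM (median 10.3) in NA and 0 to 0.749 CPM (median 0.0733) in CA, log2 differences of 1.48 in total and 5.38 in polyadenylated RNA that differed by -3.90 ± 0.36 (adjusted p = 1.6e-11). Rapgef2 had 24.7 to 75.5 CPM (median 48.5) in NT, 20.0 to 38 CPM (median 28.4) in CT, 8.57 to 21.4 CPM (median 16.4) in NA and 0 to 5.92 CPM (median 0.0350) in CA, log2 differences of 0.75 in total and 4.19 in polyadenylated RNA that differed by -3.44 ± 0.48 (adjusted p = 1.5e-07). Others were Rpl14-ps1 (-9.91, with 0 in every NT library, so that this fitted size is no bound), Mup-ps17 (-7.17), Mrip-ps (-6.53) and Umad1 (-3.45).

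**Figure D4:**
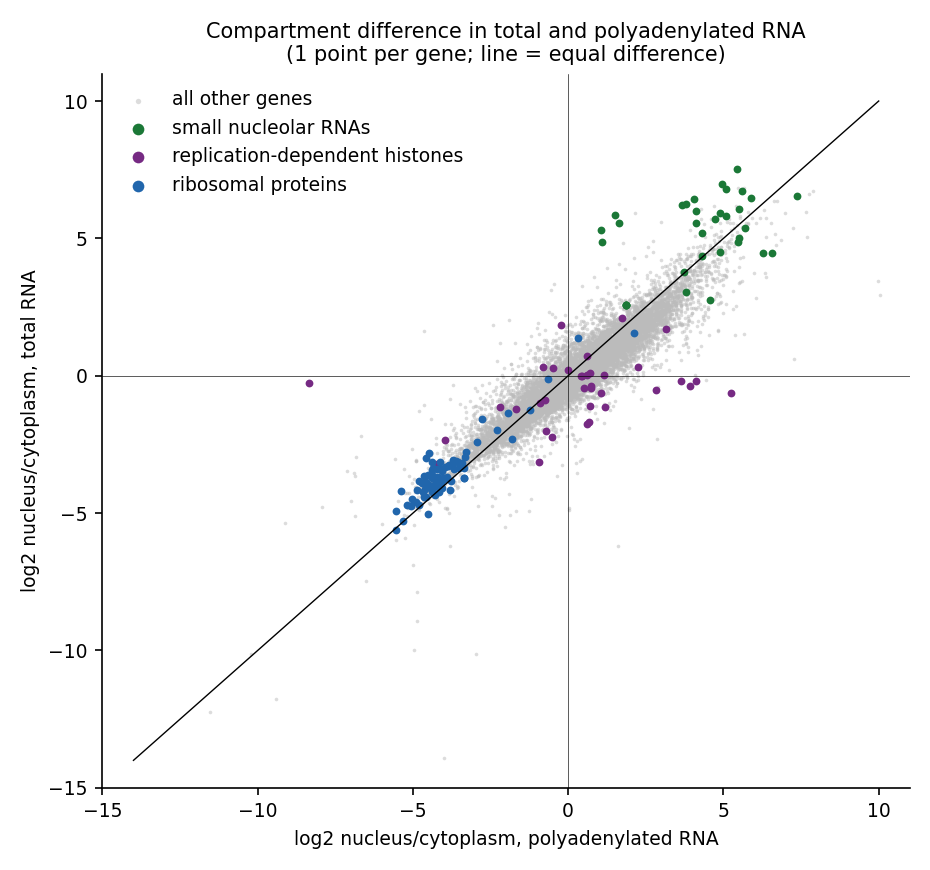
Log2 difference, nucleus minus cytoplasm, of each gene in total RNA (vertical axis) against polyadenylated RNA (horizontal axis). The line marks equal differences. Small nucleolar RNAs lie above 2 in total RNA, ribosomal proteins mostly below 0 in both, and histones scatter along the horizontal axis, with H2ac19 at -8.34 in polyadenylated and -0.25 in total RNA.

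Over the day, the ratio of nuclear to cytoplasmic total RNA varied with a period of 24 hours for 0.882% of 11570 genes at an adjusted p under 0.05, an F test of edgeR on the interaction of compartment with a cosine and a sine. This count depended on single mice. It was 94 without ZT0 replicate 2, 300 without ZT4 replicate 1 and between 1 and 23 without any of the 10 others (1 without ZT0 replicate 1), and it was 5 without the mouse block and 883 with DESeq2. 2308 genes had an unadjusted p under 0.05. Hsd17b6, of an enzyme of steroid metabolism, had the lowest p, with a fitted range of 2.96 on the log2 scale and a peak of the nuclear share 4.46 h after light onset, and its log2 ratios were 0.54 and 0.70 in the mice of ZT4 and -2.21 and -2.14 in those of ZT16. Cyp2a5, which oxidises coumarin and nicotine, had a range of 2.49, with ratios of -1.29 and -0.78 at ZT8 and -3.31 and -4.01 at ZT16. Itih1, of a plasma protease inhibitor, had a range of 1.92, with ratios of -0.74 and -0.54 at ZT8 and 1.10 and 0.97 at ZT20. The 2 mice of a time differed by less than the fitted range in each of these 3 genes, which their choice by lowest p favoured.

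Pcsk4 had a range of 3.43, with ratios of 5.23 and 4.20 at ZT4 and 1.68 and 1.70 at ZT12. H2ac20, a histone H2A, had a range of 1.97, with 0.06 and -0.59 at ZT4 and 1.79 and 1.30 at ZT16. The others of the 10 with the lowest p were Isyna1 (range 2.23), of the enzyme that makes inositol phosphate, Sco2 (2.22), of a copper chaperone of cytochrome oxidase, Gstm6 (1.84), Mug-ps1 (1.72) and Sra1 (1.37). Each of the 10 lost its call under some alternative.

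The share of pre-mRNA in the 12 CT libraries was set beside the cytoplasmic level of 3 measures. Malat1 and the small nucleolar RNAs were high in the nucleus, and the replication-dependent histones were not. The share went together with the level of Malat1 as follows. For Malat1, Pearson's r was 0.728 (permutation p = 0.00311 and 0.00933 adjusted over 3 relations) and Spearman's rho was 0.769 (permutation p = 0.00469 and 0.0141 adjusted, two-sided, n = 12). Without the 2 libraries farthest from the median share, ZT4 replicate 1 and ZT16 replicate 2, r was 0.682, and without ZT0 replicate 2 it was 0.700 (permutation p = 0.00875). The level of small nucleolar RNAs did not follow the share (r = 0.0104, permutation p = 0.972, rho = 0.147, permutation p = 0.651), nor did that of replication-dependent histones (r = -0.0782, permutation p = 0.801, rho = -0.119, permutation p = 0.718), with adjusted p of 0.972 for r and 0.718 for rho in both. These r moved with single libraries. Without ZT0 replicate 2 they were 0.326 and 0.19, and without ZT4 replicate 1 they were -0.0909 and -0.453 (permutation p of 0.164 or more in each). The highest cytoplasmic levels of small nucleolar RNAs, 8.71 and 7.94 on the log2 CPM scale, were in ZT0 replicate 2 and ZT4 replicate 2, whose pre-mRNA shares were 2.90% and 3.88% and whose libraries were the shallowest. The 10 others were between 5.36 and 6.83. The part of depth in this was not tested.

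**Figure D5:**
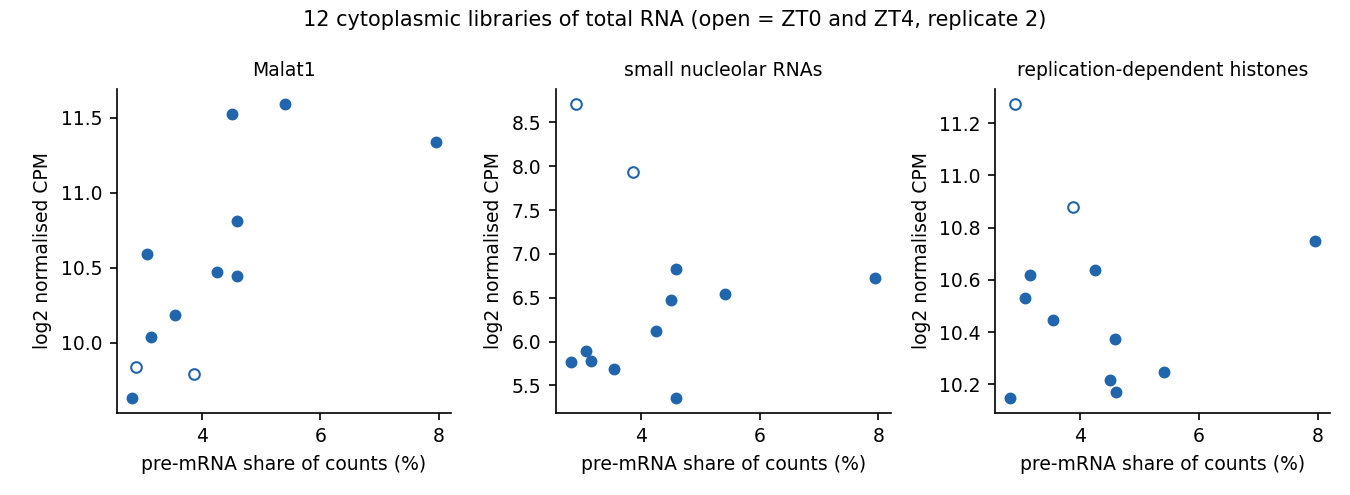
Levels of Malat1, of all small nucleolar RNAs and of all replication-dependent histones (vertical axes, log2 normalised CPM) against the share of pre-mRNA in percent of all counts (horizontal axes) in the 12 cytoplasmic libraries of total RNA. Open points are replicate 2 of ZT0 and ZT4. Malat1 goes up with the share (r = 0.728), whereas the open points lead the other panels at shares of 2.90% and 3.88%.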

How the data were processed

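Nuclear and cytoplasmic RNA of 12 wild-type livers was sequenced as ribosome-depleted total RNA (24 libraries compared here) and as polyadenylated RNA (24 further libraries). Per the labels and methods, total RNA libraries were stranded and made after depletion of ribosomal RNA, polyadenylated ones with another stranded kit, and reads were single and 65 nt long. The deposited values are expected counts, not normalized, that the authors obtained with kallisto 0.46.0 from an index in which each GRCm38 transcript is present as precursor and as spliced RNA (version and build from the submitters' processing notes). They left out isoforms of low abundance and summed the rest per gene. RNAs much shorter than a library fragment, genes in introns and near-identical copies are estimated less surely. Rat liver RNA had been added as a spike-in and was part of the index, but its values were not used in the study or here.

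The gene table had 12383 rows. After 131 duplicate rows (same symbol, identical values) had been merged, 12252 remained, and 12176 matched the annotation of the same build. For 561 genes with single-exon transcripts only, no separate pre-mRNA value exists, so nascent RNA is part of their mature counts. Expected counts were rounded. Genes with 10 counts in at least 12 of 24 libraries (24 of 48 for the comparison of RNA types) were tested with edgeR 4.0.16 in R 4.3.3 (TMM, quasi-likelihood F test, Benjamini-Hochberg adjustment), with DESeq2 1.42.0 as an alternative. Other alternatives were scalings, filters, protein-coding transcripts alone, no block and each mouse left out. Tables and permutation tests (100000 resamples) were made in Python 3.11.15 with scipy 1.17.1, numpy 2.4.6 and pandas 2.3.3. The fits were tested on simulated data. Limits from 3 counts cover counting error only.

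The mouse was a block in the reported fits, because the study took all RNA populations from the same 12 mice and the labels number them. Differences between the 2 mice of a time correlated between NT and CT across genes at 0.482 for ZT4, 0.155 for ZT8, 0.207 for ZT12, 0.228 for ZT16 and 0.214 for ZT20, but at 0.016 for ZT0, so for that time the pairing rests on the labels.

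The members and gene lists were chosen with earlier results of these data known, and the genes of U3 and Rnu73b were put into the box C/D list after their symbols were seen. Genes in the text were taken from the 265 that met a rule (those the study names, the 10 highest and 10 lowest called in every mouse at a mean of 10 CPM or more, the 3 most counted, the highest, the lowest and the opposite members of each list, under the same limits the 10 largest differences between RNA types each way and the 10 lowest p over the day). 137 of them are described, the rest enter as counts, and H4c4 was added for its sequence. Genes encoded in mitochondrial DNA were not analysed here, and 1 gene that met the rule is not reported here.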

Additional observations from a re-analysis of the deposited data

Results flagged for a closer look

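The compartment difference itself differed between total and polyadenylated RNA, by a test of the interaction over 48 libraries, for 514 genes in 1 direction and 947 in the other. Among those with a mean of at least 10 CPM over these libraries, the same sign in all 12 mice and a larger nuclear excess in total RNA, the largest log2 differences between RNA types were those of H2ac19 (8.09), Naa80 (6.25), Snord13 (3.92), Dleu2 (3.91), 4632427E13Rik (3.77), Rbm15 (3.67), Sap18 (3.38), Scp2-ps2 (3.35), Tmem254a (2.92) and Lrg1 (2.86). Under the same limits, among those where it was smaller, the largest included those of Rpl14-ps1 (-9.91), Mup-ps17 (-7.17), Mrip-ps (-6.53), H4c14 (-5.86), Glcci1 (-4.03), Pxdn (-3.90), Foxo1 (-3.49), Umad1 (-3.45) and Rapgef2 (-3.44). Several of these values rest on a population at or near 0 counts, as for Rpl14-ps1 in NT, H2ac19 and Naa80 in NA and Mrip-ps, H4c14 and Rapgef2 in CA, and their size then depends on how 0 is fitted. The kits of the library types differed, and their part was not tested.

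The ratio of nucleus to cytoplasm differed between times of day, by a test of its interaction with a 24 h curve, for 0.882% of genes tested, with the lowest p for Hsd17b6 (2.96), Sco2 (2.22), Isyna1 (2.23), H2ac20 (1.97), Itih1 (1.92), Mug-ps1 (1.72), Pcsk4 (3.43), Gstm6 (1.84), Cyp2a5 (2.49) and Sra1 (1.37), each given with its fitted log2 range. The count of these genes moved from 1 to 300 with single mice left out. These genes were chosen by this test, and 2 mice per time give each time little weight of its own.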

How the results depend on the processing

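The counts of genes called between compartments stayed within 1.5 times the main value (1500 higher and 1285 lower in the nucleus) with DESeq2, DESeq2 size factors, TMM on protein-coding genes, other filters on low counts, protein-coding transcripts alone and without both mice of the shallow CT libraries (1505 and 1289, chosen after seeing the data). With each mouse left out in turn they ranged from 1420 to 1518 and from 1270 to 1375. Scaling moved them, to 2621 and 647 with mature counts and to 466 and 3666 with pre-mRNA and mature counts together. Without the replicate block that pairs the libraries of a mouse there were 1470 and 1264 calls. The counts of genes that differed between total and polyadenylated RNA (514 and 947) ranged from 423 to 516 and from 891 to 1068 with a mouse left out, were 474 and 839 without the replicate block, and moved to 231 and 2497 when scaled by mature counts. The count of genes whose ratio varied over the day moved to 883 with DESeq2, 42 when scaled by mature counts, 59 with no filter on low counts and 5 without the replicate block, and ranged from 1 to 300 with a mouse left out. The cause was not tested.

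Of the genes named for the compartment difference, 21 are listed here that changed direction under an alternative. Rmrp, which did not pass the test, is not among them. The median of its list, which is its value with TMM, turned from 0.83 to -0.47 when scaled by all counts. Scaled by pre-mRNA and mature counts together, C4b was at -0.12, Csf1r at -0.16, Cyp7a1 at -0.48, Gas5 at -0.32, H2ac20 at -0.58, H2aj at -0.75, Psmd3 at -1.30 and Tef at -0.01. Scaled by mature counts alone, Col14a1 and Col1a2 were at 0.21, Col3a1 at 0.01, Mir22hg at 0.59, Nono at 0.42, Psmd11 at 0.28, Rora at 0.08 and Uqcc1 at 0.21. With protein-coding transcripts alone, Itih3 was at -1.43, Mup10 at -6.59, Rpl10 at -3.50, Rpl12 at -6.44 and Rsrp1 at -0.79. A further 44 of 2463 alternative values of these genes missed the threshold that the main value passed. All 20 genes that met the rule for the difference between RNA types kept their direction and call in 16 alternatives, and 50 of 160 alternative values of the 10 genes named for the day lost theirs. The correlation of pre-mRNA share and Malat1 was 0.700 without ZT0 replicate 2 and 0.791 without ZT4 replicate 1. Depth limits the tailless RNAs, since many had under 10 counts in a CT, NA or CA library.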
